A study of Mus musculus with 12 samples.

Results

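The genes described here are 44 genes of the lysosome and of autophagy, listed by symbol and grouped by role as 16 genes of the vacuolar proton pump (V-ATPase), 5 lysosomal membrane proteins, 13 lysosomal hydrolases and activators, 2 transcription factors and 8 autophagy genes. Membership required at least 10 counts in 3 libraries, and all 44 listed genes met this among the 55487 gene identifiers counted. All 44 were also among the 13535 genes tested. The rule sets a lowest count and uses no difference between groups.

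RNA was measured in primary mouse hepatocytes, the parenchymal cells of the liver, kept in culture. The 4 groups held 3 libraries each. Control cells received neither a scavenger nor FAC. FAC is not spelled out in the labels and is the usual abbreviation of ferric ammonium citrate, an iron source. The FAC group received FAC alone, the Lip-1+FAC group received liproxstatin-1, which scavenges lipid reactive oxygen species, on day 2 of culture and then FAC, and the MT+FAC group received Mito-TEMPO, which scavenges mitochondrial reactive oxygen species, on day 2 and then FAC. No group received a scavenger without FAC, so Control differs from the pretreated groups in both agents. Doses, the time of harvest, and the strain, sex and age of the mice are not given in the sources used here. The labels do not say whether libraries of a group came from separate animals or cultures, so the p-values measure the spread between these libraries, which may be technical.

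Lysosomes are acidic organelles in which hydrolases break down material delivered by endocytosis and autophagy. Their pH is kept low by the V-ATPase, whose cytosolic V1 sector hydrolyses ATP and whose membrane V0 sector carries protons. Many lysosomal and autophagy genes are targets of the related transcription factors TFEB and TFE3, which bind the palindrome CACGTG and its extended forms, and hepatocytes use the same compartment to degrade ferritin and release its iron.

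Promoter windows from RefSeq (mouse build GRCm38.p6, 250 bases before to 50 bases after the annotated start) were matched for 37 of the 44 genes by symbol. CACGTG, which reads the same on both strands, was present in 14 of these 37 genes (37.8%) and in 8.09% of all 27025 genes with RefSeq windows of this length. A gene with several annotated starts was counted once, as holding the letters if any of its windows did, among the 37 and among all genes alike. TCACGTGA, which contains it, was found in 7 of 37 genes (18.9%) against 1.12% of all genes, and the form with a further G before and C after it in 0 of 37 against 0.37%. Of 109 further genes of the pathway, from a list described below, 20 held CACGTG (18.3%), 5 TCACGTGA (4.59%) and 1 the longest form (0.917%). Among the 37 by role, CACGTG was present in 4 of 12 V-ATPase genes, 2 of 5 membrane protein genes, 6 of 12 hydrolase genes, 0 of 2 transcription factor genes and 2 of 6 autophagy genes. The stretches below are those with CACGTG upstream of the start that contain no annotated exon base, shown with up to 20 bases on either side, and their genes' values follow further on. They read 5′ to 3′ on the strand of the gene, and capitals mark CACGTG, or TCACGTGA where the longer form is complete.
Atp6v0b (chr4:117887334-117887385, minus strand): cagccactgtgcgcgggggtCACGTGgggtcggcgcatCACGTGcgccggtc
Atp6v1a (chr16:44139365-44139410, minus strand): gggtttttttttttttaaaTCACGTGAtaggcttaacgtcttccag
Lamp1 (chr8:13159080-13159160, plus strand): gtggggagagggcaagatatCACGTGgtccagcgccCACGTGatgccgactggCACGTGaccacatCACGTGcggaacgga
Gaa (chr11:119267803-119267848, plus strand): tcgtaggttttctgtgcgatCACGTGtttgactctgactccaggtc
Lgmn (chr12:102439116-102439161, minus strand): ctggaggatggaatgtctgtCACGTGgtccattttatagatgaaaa
Atg5 (chr10:44268305-44268338, plus strand): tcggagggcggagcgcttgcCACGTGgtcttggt
Atg7 (chr6:114670944-114670989, plus strand): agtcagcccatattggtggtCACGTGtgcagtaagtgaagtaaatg
The Lamp1 stretch holds 4 copies of the palindrome and the Atp6v0b stretch holds 2. A match of these letters is a description of the window and not evidence of binding.

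Gene-assigned counts lay between 22991598 and 31683376 in 11 libraries, and FAC replicate 2 held 52529278. Its file carries the word combined, with no further explanation. Levels below are CPM, which are gene counts divided by the TMM-scaled library size and expressed on the usual per-library scale, and changes are log2 fold changes from edgeR's quasi-likelihood test, called at a Benjamini-Hochberg adjusted p under 0.05 over all 13535 genes. The median log2 fold change of all genes lay between -0.02 and 0.00 in the 6 comparisons. The share of mitochondrially encoded counts was 1.15% to 1.23% in FAC, 0.954% to 1.21% in Control, 0.717% to 0.798% in Lip-1+FAC and 0.639% to 0.711% in MT+FAC, and its part in the results was not tested.

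The hepatocyte label was checked against marker genes. The summed level of 6 hepatocyte markers, led by Alb (albumin) at 7868.3 to 10336.5 CPM, was 16452.5 to 16827.8 CPM in Control, 15673.9 to 16379.6 in FAC, 12517.7 to 13566.7 in Lip-1+FAC and 12909.6 to 14187.6 in MT+FAC. Within that list Cps1, a urea cycle enzyme gene, differed from the genes that led the sum. It fell in FAC, from 1454.5 to 1890.1 CPM in Control down to 543.0 to 805.9 (edgeR adjusted p = 0.000191). Against FAC it rose by 0.54 after liproxstatin-1 and by 0.57 after Mito-TEMPO (edgeR adjusted p = 0.0222 and 0.0163), where Alb, Apoa1, Ttr and Serpina1c were called lower. The summed level of 4 cholangiocyte markers (Krt19, Krt7, Epcam, Sox9) was 58 to 74.3 CPM in FAC, 20.9 to 23.8 in Control, 12.4 to 15.6 in Lip-1+FAC and 17.1 to 20.1 in MT+FAC. The summed level of 7 macrophage markers was 289 to 321.1 CPM in FAC, 223.1 to 255.5 in Control, 115.9 to 146.9 in Lip-1+FAC and 142.7 to 174.2 in MT+FAC. Their defining Adgre1 was at or below 1.81 CPM in every library, and most of the sum came from Cd68, which encodes a glycoprotein of the lysosomal membrane, at 280 to 311 CPM in FAC, 214 to 245 in Control, 106 to 138 in Lip-1+FAC and 135 to 164 in MT+FAC. Clec4f of the same list, at or below 1.5 CPM, fell by 1.08 in FAC and rose by 1.16 in MT+FAC against FAC (edgeR adjusted p = 0.0456 and 0.0278). The summed level of 7 stellate cell and fibroblast markers was 28.4 to 36.5 CPM in FAC, 18.5 to 25 in Control, 11.4 to 15 in Lip-1+FAC and 14.3 to 19.3 in MT+FAC. Their defining Col1a1 was at or below 1.09 CPM, whereas Reln was 15.9 to 16.2 CPM in FAC and 3.46 to 8.93 in the other groups, and Acta2 was 9.13 to 16.4 in FAC and 3.91 to 11.1 in the others. In FAC against Control Reln was called higher, by 1.11 (edgeR adjusted p = 4.54e-05), and Acta2 was not called, at 0.40 (edgeR adjusted p = 0.265). The collagen genes Col1a1, Col1a2 and Col3a1 had the opposite signs without a call, at -0.52, -0.22 and -0.44 in FAC and 0.89, 0.75 and 0.53 in MT+FAC against FAC. The summed level of 5 sinusoidal endothelial markers was 32.1 to 33 CPM in FAC, 33 to 34.5 in Control, 23.8 to 25.3 in Lip-1+FAC and 24.2 to 28.2 in MT+FAC. Their defining Pecam1 was at or below 3.56 CPM, and most of the sum came from Stab2, at 25.7 to 29.3 CPM in Control and FAC and 15.7 to 22.2 in the pretreated groups. Cps1, Cd68, Clec4f, Reln, Acta2, Col1a2, Col3a1 and Stab2 were singled out after their values were seen. The erythroid genes were at or below 0.0575 CPM in sum. The sums of the hepatocyte, cholangiocyte, macrophage, stellate cell and endothelial lists moved with group comparisons below, and their part in the results was not tested. In bulk RNA, fewer cells of a type and less RNA per cell cannot be told apart.

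Levels between genes are compared per kilobase of exon length. As the mean over all 12 libraries, the hydrolase genes Ctsz (838 CPM per kb), Ctsb (315), Ctsl (270) and Ctsd (223), the membrane protein gene Lamp1 (448) and the activator gene Psap (247) were the most abundant of the 44. Among V-ATPase genes Atp6v1g1 led with 167 and Atp6ap1 followed with 161 CPM per kb, whereas the genes of the a subunit isoforms of V0, Atp6v0a1 and Tcirg1, stood at 22.1 and 12.9. The transcription factor genes were low, Tfe3 at 9.43 and Tfeb at 2.1 CPM per kb, the latter being the lowest of all 44.

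FAC was compared with Control to show what FAC alone did to these genes. Of the 44, 16 were higher and 4 lower in FAC, and the other 24 were not called. Over all genes tested 36.6% were called, 17.5% higher and 19.1% lower. The calls comprised 6 higher and 1 lower of the 16 V-ATPase genes, 2 higher and 1 lower of the 5 membrane proteins, 6 higher and 1 lower of the 13 hydrolases, Tfe3 of the 2 transcription factors, and 1 higher and 1 lower of the 8 autophagy genes. The changes were modest, with log2 fold changes between -0.58 (Lipa) and 0.58 (Tfe3) and a median of 0.10 over the 44 genes. Leaving out 1 library of either group at a time gave 15 to 19 calls.

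Lip-1+FAC was compared with FAC to show the effect of liproxstatin-1 in FAC-treated cells. Of the 44 genes 14 were higher and 12 lower in Lip-1+FAC, where 39.9% of all genes were called, 20.7% higher and 19.2% lower. Autophagy genes gave 5 higher and 0 lower of 8, and membrane proteins 3 higher and 0 lower of 5, whereas V-ATPase genes gave 2 higher and 6 lower of 16 and hydrolases 4 higher and 5 lower of 13. With offsets for GC content and gene length the hydrolases gave 6 higher and 2 lower and the membrane proteins 1 higher and 0 lower, where 38.9% of all genes were called. The median over the 44 genes was -0.02, and their log2 fold changes ran from -0.47 (Atp6v0b) to 1.22 (Lipa).

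MT+FAC was compared with FAC in the same way, and both comparisons use the same FAC libraries. Here 7 of the 44 genes were higher and 19 lower, where 40.9% of all genes were called, 21.2% higher and 19.7% lower. Of the 16 V-ATPase genes 11 were lower and 0 higher, with a median log2 fold change of -0.24. Autophagy genes gave 4 higher and 0 lower of 8, hydrolases 2 higher and 6 lower of 13, and membrane proteins 1 higher and 1 lower of 5. The median over the 44 genes was -0.13.

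The pretreatments were compared with each other directly, which is also the test of whether their effects within FAC-treated cells differed. MT+FAC was lower than Lip-1+FAC for 3 of the 44 genes and higher for 0, where 1.34% of all genes were called, 0.465% higher and 0.879% lower. The genes were Ctsl, Gabarapl1 and Atp6v1h. The mean was lower in MT+FAC for 38 of the 44 genes, most of them not called. The median log2 fold change of the 44 was -0.10, where that of all genes tested was 0.00. Counts of calls here depended on the method. In DESeq2 11 were lower and 0 higher, where 3.74% of the 11625 genes with an adjusted p there were called. Leaving out a library gave 1 to 4 calls. Only Ctsl was called without Lip-1+FAC replicate 2, and only Ctsl without MT+FAC replicate 3.

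Against Control, the Lip-1+FAC group had 15 higher and 2 lower genes (30.2% of all genes called, 15.4% higher and 14.8% lower), with a median log2 fold change of 0.10. The MT+FAC group had 8 higher and 5 lower (19.8% of all genes called, 9.71% higher and 10.1% lower), with a median of 0.00. The latter count fell to 5 with offsets for GC content and gene length (17.7% of all genes called) and to 7 without Control replicate 1 or without MT+FAC replicate 2.

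**Figure D1:**
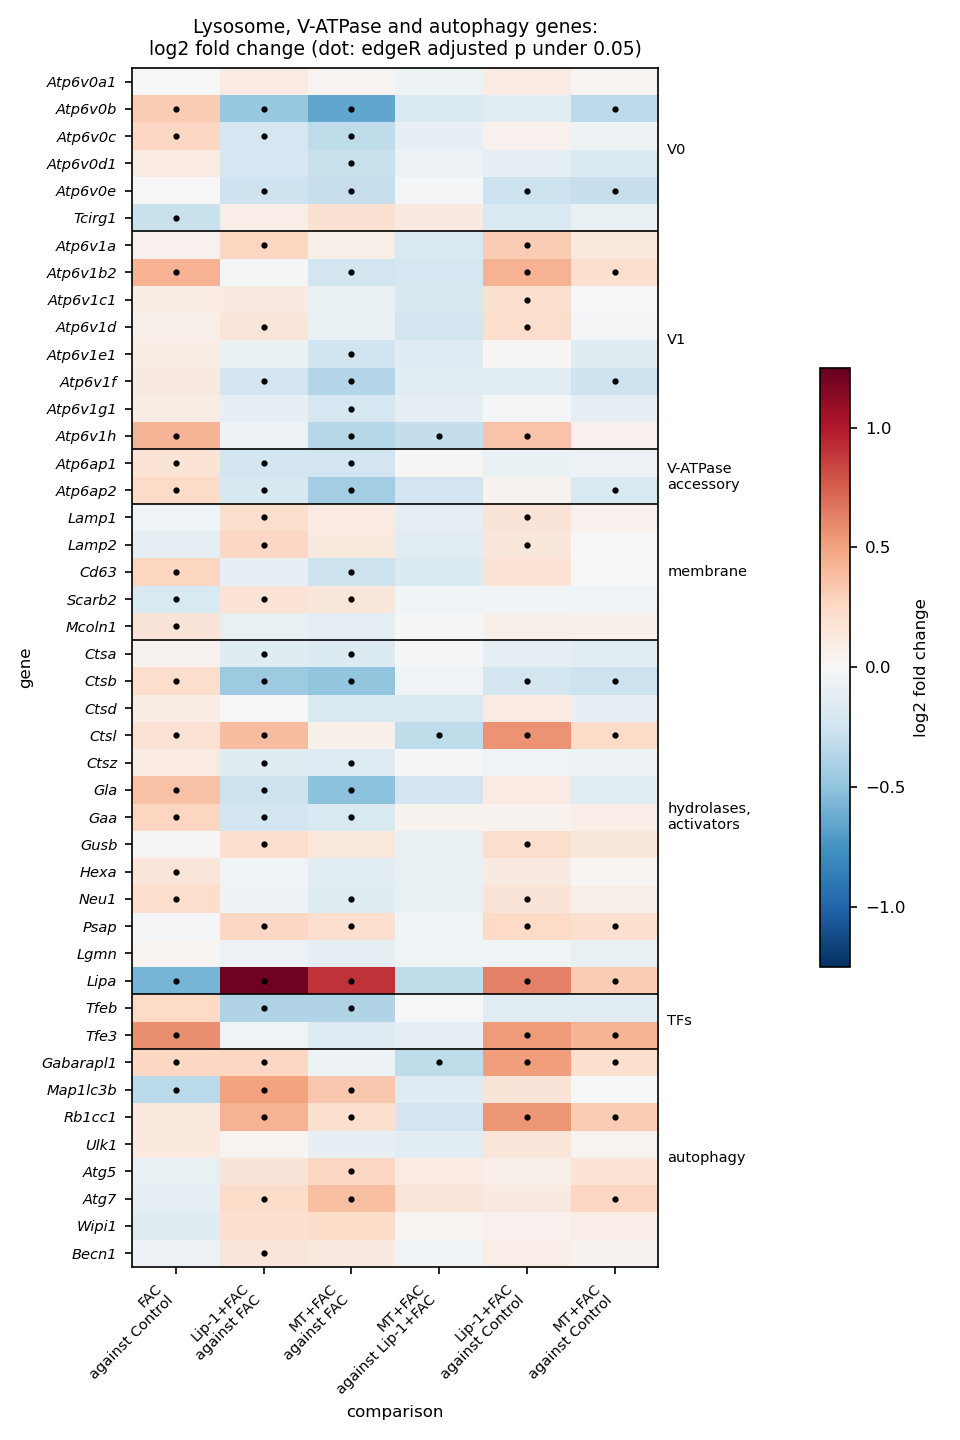
Log2 fold change (colour scale) of the 44 genes (vertical axis, grouped by role) in the 6 comparisons (horizontal axis), with a dot where the edgeR adjusted p was under 0.05. In the column of MT+FAC against FAC, 11 of the 16 V-ATPase genes are blue with a dot, and the darkest red cell is Lipa in Lip-1+FAC against FAC at 1.22.

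Within the V-ATPase, the V0 gene with the greatest fall was Atp6v0b, which encodes a proteolipid of the proton-conducting ring (ENSMUSG00000033379, GRCm38 chromosome 4, 117884326 to 117887333, protein-coding). Its level was 217, 185 and 252 CPM in Control, 267, 274 and 278 in FAC, 214, 201 and 177 in Lip-1+FAC, and 175, 177 and 169 in MT+FAC. All FAC libraries were above all libraries of the other groups, and all MT+FAC libraries were below all Control libraries. Atp6v0b rose by 0.32 in FAC (SE 0.0898, edgeR adjusted p = 0.00985). Against FAC it fell by 0.47 in Lip-1+FAC (SE 0.0899, edgeR adjusted p = 0.000651) and by 0.65 in MT+FAC (SE 0.0902, edgeR adjusted p = 3.91e-05). Against Control, the fall of 0.33 in MT+FAC (SE 0.0902, edgeR adjusted p = 0.0182) was lost with offsets for GC content and length, at -0.19, and without Control replicate 3, at -0.21. Of its exonic bases 11.8% overlap another gene, and reads falling on both genes are not counted for either in this file layout.

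The other V0 genes followed in part. Atp6v0c, the main proteolipid, was 154, 139 and 153 CPM in Control and 165, 208 and 162 in FAC, and the FAC 2 library stood apart from the other FAC libraries. Its rise of 0.26 in FAC (edgeR adjusted p = 0.0163) was 0.14 and not called without FAC replicate 2, and 0.22 and not called without Control replicate 2. Atp6v0e, a small membrane subunit, was 304, 278 and 319 CPM in Control, 299, 284 and 316 in FAC, 267, 260 and 223 in Lip-1+FAC, and 243, 248 and 247 in MT+FAC. Control and FAC overlapped, and every pretreated library was below both. Against Control it fell by 0.27 in Lip-1+FAC (SE 0.069, edgeR adjusted p = 0.007) and by 0.29 in MT+FAC (SE 0.069, edgeR adjusted p = 0.00662). Tcirg1, which encodes an isoform of the a subunit, went the other way from the remaining called V-ATPase genes. It was 61.2, 63.1 and 71.3 CPM in Control and 51.1, 58.8 and 51.3 in FAC, without overlap, and fell by 0.28 (SE 0.0754, edgeR adjusted p = 0.00773). The other a subunit gene of the list, Atp6v0a1, was not called in any of the 6 comparisons, with log2 fold changes between -0.06 and 0.10.

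Of the 8 V1 genes 2 rose in FAC and 0 fell, where 17.5% of all genes were called higher and 19.1% lower. Atp6v1b2, a nucleotide-binding subunit (ENSMUSG00000006273, GRCm38 chromosome 8, 69088646 to 69113711), was 119, 115 and 117 CPM in Control, 166, 161 and 147.97 in FAC, 158, 159 and 155 in Lip-1+FAC, and 129, 145 and 131 in MT+FAC. All FAC-treated libraries were above Control, and those of MT+FAC were the lowest among them. The rise in FAC was 0.43 (SE 0.0602, edgeR adjusted p = 2.22e-05). Lip-1+FAC differed from FAC by -0.01 (edgeR adjusted p = 0.917), and MT+FAC was lower than FAC by a log2 fold change of -0.23 (edgeR adjusted p = 0.00505).

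Atp6v1h, which encodes the subunit that regulates coupling of the sectors (ENSMUSG00000033793, GRCm38 chromosome 1, 5070018 to 5162529), had the same order of groups. Its level was 174, 165 and 153 CPM in Control, 221, 221 and 215 in FAC, 200, 207 and 224 in Lip-1+FAC, and 164, 180 and 166 in MT+FAC. FAC and Lip-1+FAC overlapped each other and lay above Control and MT+FAC, which also overlapped each other. It rose by 0.42 in FAC (SE 0.0616, edgeR adjusted p = 4.17e-05) and was lower in MT+FAC than in FAC by -0.36 (SE 0.0615, edgeR adjusted p = 0.000157). Between the pretreatments it was lower in MT+FAC by -0.30 (SE 0.0616, edgeR adjusted p = 0.0191), a call lost in 4 of the 6 fits that left out a library, where the adjusted p reached 0.104.

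Atp6v1a encodes the catalytic subunit. Its level was 187, 186 and 182 CPM in Control, 197, 185 and 194 in FAC, 230, 223 and 240 in Lip-1+FAC, and 202, 202 and 201 in MT+FAC. The Lip-1+FAC libraries were above all others. Atp6v1a was not called in FAC against Control, at 0.05 (SE 0.0504, edgeR adjusted p = 0.456), rose by 0.27 in Lip-1+FAC against FAC (SE 0.0504, edgeR adjusted p = 0.000393), and stood at 0.07 in MT+FAC against FAC (SE 0.0503, edgeR adjusted p = 0.269). The direct difference between pretreatments was -0.19 (SE 0.0504, edgeR adjusted p = 0.0637), which passed the threshold in DESeq2 (adjusted p = 0.00964), with the filter of 10 counts in 3 libraries and with the stranded columns summed.

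All 8 V1 genes had a lower mean in MT+FAC than in Lip-1+FAC, with log2 fold changes between -0.30 and -0.11 and a median of -0.20, of which only Atp6v1h was called. For the 6 V0 genes the median was -0.07 and the range -0.18 to 0.11. Against Control, 5 of the 8 V1 genes were higher in Lip-1+FAC and 0 lower, where 15.4% of all genes were higher. With offsets for GC content and length these were 2 and 0, against 15% of all genes higher. In MT+FAC 1 was higher (Atp6v1b2) and 1 lower (Atp6v1f), where 19.8% of all genes were called. Atp6v1f was 119, 110 and 126 CPM in Control and 95.9, 102 and 97.2 in MT+FAC, and its change of -0.26 (SE 0.0839, edgeR adjusted p = 0.0349) was lost with those offsets, at -0.07, and in 5 of the 6 fits that left out a library. Annotated copies elsewhere in the genome match parts of Atp6v1f, Atp6v1g1 and Atp6ap2 at 95% identity or more, and reads shared with them are not counted.

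The accessory proteins assist assembly and trafficking of the pump. Atp6ap2 (ENSMUSG00000031007, GRCm38 chromosome X, 12587801 to 12617049) was 262, 226 and 256 CPM in Control, 306, 274 and 298 in FAC, 248, 270 and 249 in Lip-1+FAC, and 210, 213 and 228 in MT+FAC. FAC stood above the other groups without overlap. Atp6ap2 rose by 0.24 in FAC (SE 0.0651, edgeR adjusted p = 0.00771), was not called there without Control replicate 2 (0.17), and was lower in MT+FAC than in FAC by -0.43 (SE 0.0652, edgeR adjusted p = 4.95e-05). Atp6ap1 rose by 0.17 in FAC, a rise of 0.16 and not called when Control replicate 2 was left out and of 0.15 and not called when FAC replicate 3 was, and was lower than FAC by -0.24 in either pretreated group.

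**Figure D2:**
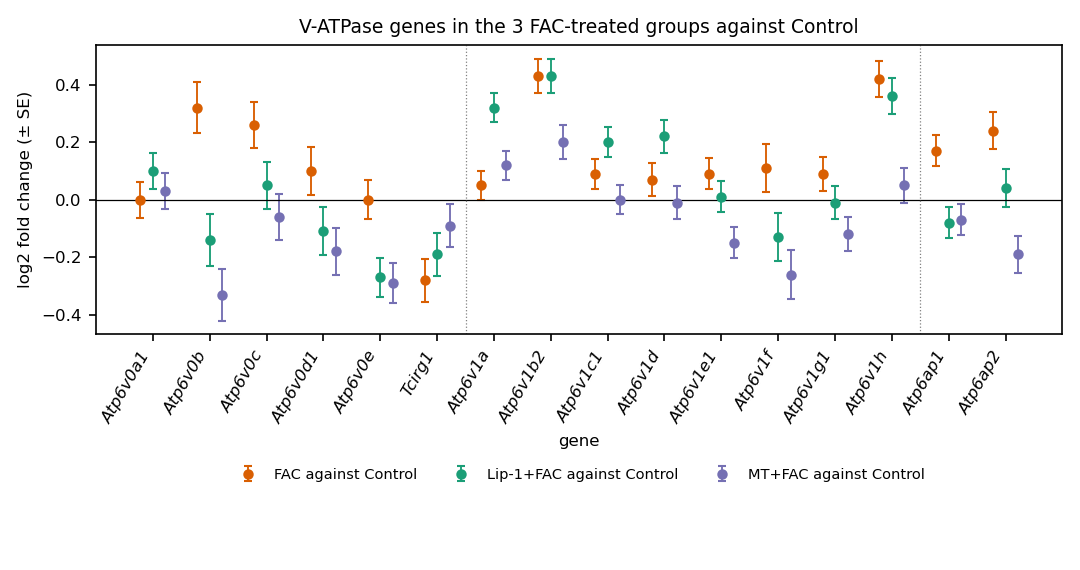
Log2 fold change with its standard error (vertical axis) of the 16 V-ATPase genes (horizontal axis) in the 3 FAC-treated groups against Control, with dotted lines between the V0, V1 and accessory genes. The points of MT+FAC lie below those of Lip-1+FAC for all 8 V1 genes, and Atp6v1b2 and Atp6v1h have the highest points of FAC, at 0.43 and 0.42.

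Among the membrane proteins, Lamp1, a major glycoprotein of the lysosomal limiting membrane (ENSMUSG00000031447, GRCm38 chromosome 8, 13159161 to 13175338), was 1167.3, 1119.9 and 1202.2 CPM in Control, 1134.5, 1158.4 and 1073.2 in FAC, 1336.5, 1326.1 and 1249.1 in Lip-1+FAC, and 1198.7, 1187.4 and 1224.7 in MT+FAC. The Lip-1+FAC libraries were above all others, and Control overlapped FAC. Lamp1 stood at -0.05 in FAC against Control (SE 0.0523, edgeR adjusted p = 0.474), rose by 0.22 in Lip-1+FAC against FAC (SE 0.0523, edgeR adjusted p = 0.00309), and was not called in MT+FAC against FAC, at 0.10 (edgeR adjusted p = 0.133). The direct difference between the pretreatments, -0.12, was not called (edgeR adjusted p = 0.342).

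Scarb2, which carries glucocerebrosidase to lysosomes, was 198, 195 and 198 CPM in Control, 170, 177 and 169 in FAC, 197, 185 and 198 in Lip-1+FAC, and 188, 192 and 189 in MT+FAC. FAC was below every other library. It fell by 0.19 in FAC (SE 0.0503, edgeR adjusted p = 0.00573). The tetraspanin gene Cd63 took the opposite course, with a rise of 0.27 in FAC (edgeR adjusted p = 0.00358) and a log2 fold change of -0.27 in MT+FAC against FAC (edgeR adjusted p = 0.00347). Lamp2, the partner of Lamp1, rose by 0.26 in Lip-1+FAC against FAC (edgeR adjusted p = 0.000355), which was 0.12 and not called with offsets for GC content and length. Mcoln1, a cation channel of the lysosome, rose by 0.16 in FAC (edgeR adjusted p = 0.0213), a call lost with those offsets (0.09) and in 3 of the 6 fits that left out a library.

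The gene with the greatest change among the 44 was Lipa, which encodes lysosomal acid lipase, the hydrolase of cholesteryl esters and triglycerides (ENSMUSG00000024781, GRCm38 chromosome 19, 34492318 to 34527474). Its level was 161, 186 and 151.6 CPM in Control, 112, 105 and 116 in FAC, 268, 232 and 274 in Lip-1+FAC, and 229, 195 and 197 in MT+FAC. The groups did not overlap, FAC being lowest and Lip-1+FAC highest. Lipa fell by 0.58 in FAC (SE 0.0844, edgeR adjusted p = 4.51e-05), and rose against FAC by 1.22 in Lip-1+FAC (SE 0.0848, edgeR adjusted p = 1.86e-08) and by 0.90 in MT+FAC (SE 0.0844, edgeR adjusted p = 5.56e-07). Against Control it was higher by 0.63 in Lip-1+FAC (SE 0.0839, edgeR adjusted p = 2.52e-05) and by 0.32 in MT+FAC (SE 0.0837, edgeR adjusted p = 0.0132), the latter lost with offsets for GC content and length (0.22) and in 3 of the 6 fits without a library. MT+FAC differed from Lip-1+FAC by -0.32 (SE 0.0834, edgeR adjusted p = 0.0699), which passed the threshold under 5 alternatives, among them DESeq2 (adjusted p = 0.0252).

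Ctsl and Ctsb encode cysteine proteases of the lysosome, cathepsins L and B, and differed from each other in their response. Ctsl (ENSMUSG00000021477, GRCm38 chromosome 13, 64359337 to 64370890) was 1452.8, 1431.7 and 1504.3 CPM in Control, 1692.9, 1585.8 and 1684.4 in FAC, 2197.1, 2119.2 and 2175.2 in Lip-1+FAC, and 1724.4, 1731.8 and 1728.4 in MT+FAC. No groups overlapped, and Lip-1+FAC stood well above the rest. Ctsl rose by 0.18 in FAC (SE 0.0493, edgeR adjusted p = 0.00874) and by a further 0.39 in Lip-1+FAC against FAC (SE 0.0493, edgeR adjusted p = 7.03e-06). Lip-1+FAC was above Control by 0.56 (SE 0.0494, edgeR adjusted p = 1.89e-07). MT+FAC differed from FAC by 0.06 (SE 0.0493, edgeR adjusted p = 0.325). The direct difference between the pretreatments was -0.32 (SE 0.0493, edgeR adjusted p = 0.00167), and it was called in every alternative run. Of the exonic bases of Ctsl 26.8% overlap other annotated genes.

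Ctsb (ENSMUSG00000021939, GRCm38 chromosome 14, 63122462 to 63145923) was 2077.7, 1840.2 and 2033.4 CPM in Control, 2315.8, 2153.6 and 2463.8 in FAC, 1673.4, 1725.8 and 1670.9 in Lip-1+FAC, and 1651.9, 1664.7 and 1609.9 in MT+FAC. FAC was the highest group, and every pretreated library was below Control. Ctsb rose by 0.22 in FAC (SE 0.0594, edgeR adjusted p = 0.00718) and was lower than FAC by -0.45 in Lip-1+FAC (SE 0.0595, edgeR adjusted p = 1.02e-05) and by -0.49 in MT+FAC (SE 0.0596, edgeR adjusted p = 4.99e-06). Against Control it fell by 0.23 in Lip-1+FAC (SE 0.0595, edgeR adjusted p = 0.00672) and by 0.27 in MT+FAC (SE 0.0595, edgeR adjusted p = 0.00371). Its exons overlap those of Fdft1 over 12.8% of their bases.

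Gla encodes alpha-galactosidase A (ENSMUSG00000031266, GRCm38 chromosome X, 134588149 to 134601125). Its level was 83.7, 67.4 and 76.9 CPM in Control, 100, 97.9 and 97 in FAC, 78.6, 82.1 and 84 in Lip-1+FAC, and 70.2, 70.6 and 66.5 in MT+FAC. All FAC libraries were above the rest. Gla rose by 0.37 in FAC (SE 0.0704, edgeR adjusted p = 0.000438) and was lower than FAC by -0.27 in Lip-1+FAC (SE 0.0702, edgeR adjusted p = 0.00498) and by -0.51 in MT+FAC (SE 0.0705, edgeR adjusted p = 2.04e-05). Gaa, the acid alpha-glucosidase that degrades glycogen in lysosomes, also rose in FAC, by 0.27, and was lower by -0.23 and -0.19 in Lip-1+FAC and MT+FAC against FAC, though with offsets for GC content and length these were -0.04 and -0.10 and not called.

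The aspartic protease gene Ctsd was 488, 456 and 601 CPM in Control, 566, 506 and 578 in FAC, 626, 579 and 446 in Lip-1+FAC, and 483, 456 and 504 in MT+FAC. The groups overlapped apart from FAC and MT+FAC, and the spread within Control and Lip-1+FAC was wide. It was not called in any comparison, standing at 0.09 in FAC against Control (SE 0.125, edgeR adjusted p = 0.604), 0.00 in Lip-1+FAC against FAC (SE 0.125, edgeR adjusted p = 0.993) and -0.19 in MT+FAC against FAC (SE 0.125, edgeR adjusted p = 0.246). Of its exonic bases 34.4% overlap another gene. Psap, the precursor of the saposins that assist sphingolipid hydrolases, stood at -0.01 in FAC and rose against FAC after either pretreatment, by 0.26 (Lip-1+FAC) and 0.21 (MT+FAC) (edgeR adjusted p = 0.000401 and 0.00242). The sialidase gene Neu1 and the hexosaminidase gene Hexa rose in FAC by 0.22 and 0.15, and the latter call was lost in 4 of the 6 fits that left out a library. Gusb, which encodes beta-glucuronidase, rose by 0.21 in Lip-1+FAC against FAC, and by 0.16 without a call when Lip-1+FAC replicate 3 was left out. Lgmn, an asparaginyl protease gene, was not called in any comparison, with log2 fold changes between -0.12 and 0.03.

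**Figure D3:**
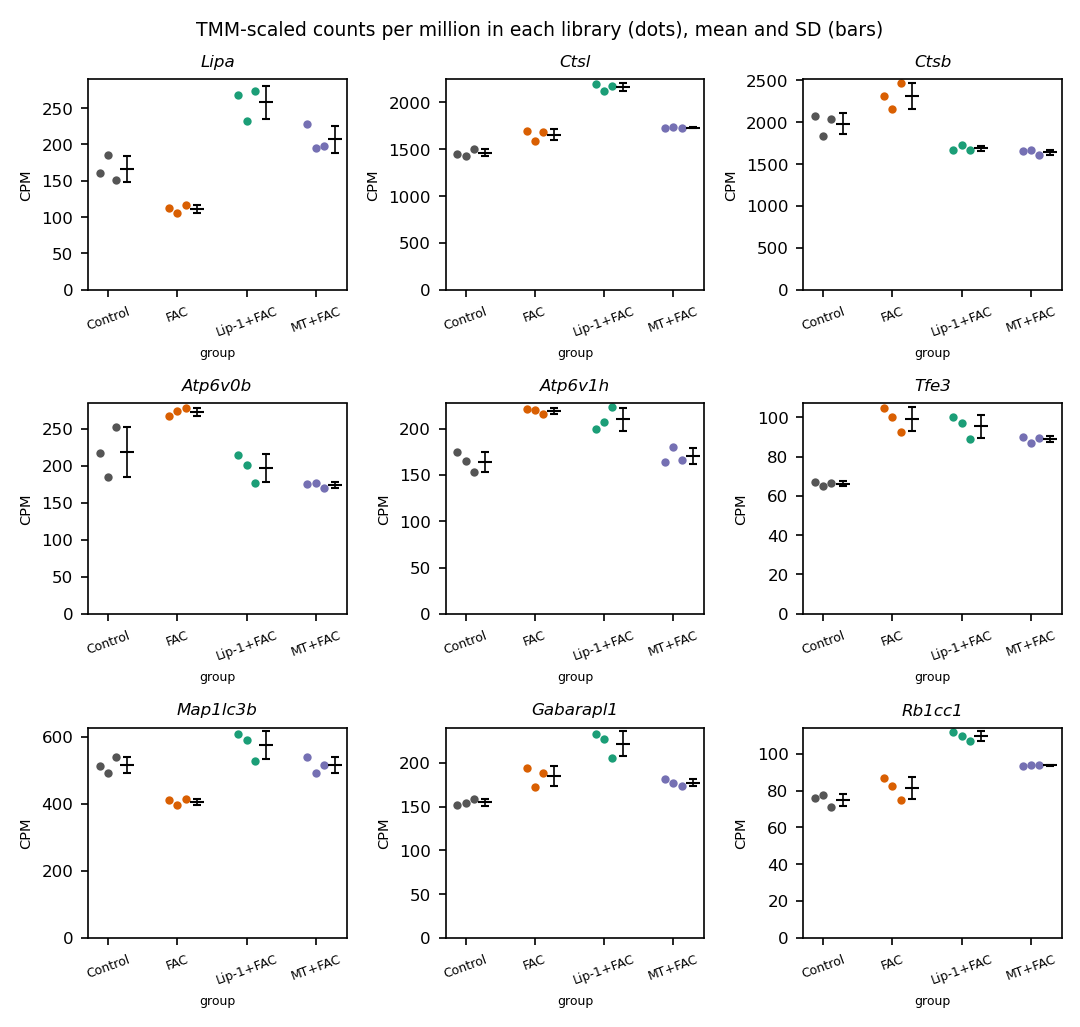
TMM-scaled CPM (vertical axes, from 0) of 9 of the 44 genes in each library (dots), by group (horizontal axes), with mean and SD of the 3 libraries beside them. Lipa was lowest in FAC at 105 to 116 CPM and highest in Lip-1+FAC at 232 to 274, whereas Ctsb and Atp6v0b were highest in FAC.

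Of the transcription factor genes, Tfe3 (ENSMUSG00000000134, GRCm38 chromosome X, 7762560 to 7775202) was 67.2, 65 and 66.5 CPM in Control, 104, 100 and 92.7 in FAC, 100, 97.3 and 88.8 in Lip-1+FAC, and 90.1, 87.1 and 89.3 in MT+FAC. Every FAC-treated library was above Control. Tfe3 rose by 0.58 in FAC (SE 0.0632, edgeR adjusted p = 1.53e-06), by 0.53 in Lip-1+FAC against Control (SE 0.0634, edgeR adjusted p = 7.05e-06) and by 0.42 in MT+FAC against Control (SE 0.0633, edgeR adjusted p = 0.000174). Lip-1+FAC differed from FAC by -0.05 (edgeR adjusted p = 0.515). MT+FAC differed from FAC by -0.16 (edgeR adjusted p = 0.0514), which passed the threshold under 6 alternatives, among them DESeq2 (adjusted p = 0.0483).

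Tfeb (ENSMUSG00000023990, GRCm38 chromosome 17, 47737030 to 47792419) was 11.5, 10.8 and 13.4 CPM in Control, 13.2, 15.8 and 13.3 in FAC, 11.5, 10.8 and 10.4 in Lip-1+FAC, and 12.2, 10.5 and 9.84 in MT+FAC. FAC was above both pretreated groups and overlapped Control. It stood at 0.25 in FAC against Control (SE 0.122, edgeR adjusted p = 0.115) and was lower than FAC by -0.38 in Lip-1+FAC (SE 0.123, edgeR adjusted p = 0.0195) and in MT+FAC (SE 0.122, edgeR adjusted p = 0.018). With offsets for GC content and length these changes were -0.10 and -0.20 and not called, and without FAC replicate 2 they were -0.28 and -0.29 and not called.

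The autophagy genes were led by the ATG8 family, small proteins that are coupled to lipid on the autophagosome membrane. Map1lc3b (ENSMUSG00000031812, GRCm38 chromosome 8, 121590361 to 121598760) was 513, 491 and 539 CPM in Control, 409, 395 and 413 in FAC, 606, 590 and 528 in Lip-1+FAC, and 540, 491 and 515 in MT+FAC. FAC was below every other library. It fell by 0.34 in FAC (SE 0.0601, edgeR adjusted p = 0.000229), and rose against FAC by 0.50 in Lip-1+FAC (SE 0.0601, edgeR adjusted p = 3.46e-06) and by 0.34 in MT+FAC (SE 0.06, edgeR adjusted p = 0.000204). Against Control it stood at 0.16 in Lip-1+FAC (edgeR adjusted p = 0.0511) and 0.00 in MT+FAC (edgeR adjusted p = 0.984). Processed copies of Map1lc3b are annotated, the closest 99.6% identical over 282 bases, so that reads from that stretch may be missing from its counts.

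Gabarapl1, of the same family (ENSMUSG00000030161, GRCm38 chromosome 6, 129533160 to 129542346), rose in FAC where Map1lc3b fell. Its level was 151.6, 154 and 159 CPM in Control, 194, 172 and 188 in FAC, 233, 227 and 206 in Lip-1+FAC, and 182, 177 and 174 in MT+FAC. Control was lowest and Lip-1+FAC highest, and FAC overlapped MT+FAC. It rose by 0.26 in FAC (SE 0.0603, edgeR adjusted p = 0.0028) and by 0.26 in Lip-1+FAC against FAC (SE 0.0601, edgeR adjusted p = 0.00194). MT+FAC differed from FAC by -0.06 (edgeR adjusted p = 0.47) and from Lip-1+FAC by -0.32 (SE 0.0602, edgeR adjusted p = 0.0105), the latter with adjusted p-values up to 0.0688 when a library was left out. Of the exonic bases of Gabarapl1 28.3% overlap another gene.

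Rb1cc1 encodes the scaffold of the ULK kinase complex that starts autophagosome formation (ENSMUSG00000025907, GRCm38 chromosome 1, 6206197 to 6276648). It was 76.1, 77.7 and 71 CPM in Control, 86.7, 82.6 and 75 in FAC, 112, 110 and 107 in Lip-1+FAC, and 93.4, 94.2 and 93.7 in MT+FAC. The pretreated groups stood above Control and FAC, which overlapped, and Lip-1+FAC stood above MT+FAC. Rb1cc1 rose against FAC by 0.43 in Lip-1+FAC (SE 0.0626, edgeR adjusted p = 3.12e-05) and by 0.20 in MT+FAC (SE 0.0626, edgeR adjusted p = 0.0151), the latter lost in 3 of the 6 fits that left out a library. Against Control it rose by 0.55 in Lip-1+FAC (SE 0.063, edgeR adjusted p = 4.48e-06) and by 0.32 in MT+FAC (SE 0.063, edgeR adjusted p = 0.00162), the latter 0.16 and not called with offsets for GC content and length. The difference between the pretreatments was -0.23 (edgeR adjusted p = 0.0823).

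Atg7 encodes the activating enzyme of both autophagy conjugation systems. It was 94.5, 115 and 101 CPM in Control, 86.7, 96.6 and 102 in FAC, 105, 112 and 119 in Lip-1+FAC, and 119, 126 and 126 in MT+FAC. MT+FAC was above Control and FAC without overlap. Atg7 rose by 0.38 in MT+FAC against FAC (SE 0.0767, edgeR adjusted p = 0.000718) and by 0.23 in Lip-1+FAC against FAC (SE 0.0768, edgeR adjusted p = 0.0212), the latter lost in 3 of the 6 fits that left out a library. Against Control, Atg7 rose by 0.26 in MT+FAC (SE 0.0768, edgeR adjusted p = 0.0225), a call lost with offsets for GC content and length (0.19) and in 4 of the 6 fits that left out a library. Atg5, part of the conjugate that lipidates ATG8 proteins, was 19, 19.6 and 19.9 CPM in Control, 19.3, 17.6 and 17.8 in FAC, 21.8, 20.4 and 18.9 in Lip-1+FAC, and 22.3, 19.7 and 23.8 in MT+FAC. It rose in MT+FAC against FAC, without overlap, by 0.26 (SE 0.0945, edgeR adjusted p = 0.0335). That call was lost in 4 of the 6 fits that left out a library. Becn1, of the lipid kinase complex, rose by 0.15 in Lip-1+FAC against FAC (edgeR adjusted p = 0.0327), was not called when any of the 6 libraries was left out, and shares 43.9% of its exonic bases with Cntd1. The kinase gene Ulk1 and the phosphoinositide effector gene Wipi1 were not called in any comparison.

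Members with CACGTG in the promoter window were set beside those without it. In FAC against Control, 5 of the 14 with the motif were higher and 0 lower, and 8 of the 23 without it were higher and 4 lower, where 36.6% of all genes were called, 17.5% higher and 19.1% lower. In MT+FAC against FAC, 2 were higher and 6 lower of the 14, and 4 were higher and 9 lower of the 23, where 40.9% of all genes were called, 21.2% higher and 19.7% lower. In Lip-1+FAC against FAC, 4 were higher and 5 lower of the 14, and 8 were higher and 6 lower of the 23 (39.9% of all genes called). Against Control, Lip-1+FAC gave 3 higher and 1 lower of the 14 and 8 higher and 0 lower of the 23 (30.2% of all genes called), and MT+FAC gave 2 and 2 of the 14 and 4 and 2 of the 23 (19.8% of all genes called). Between the pretreatments 1 gene of either set was lower in MT+FAC (1.34% of all genes called). The medians with and without the motif were 0.07 and 0.10 in FAC against Control, -0.15 and -0.10 in MT+FAC against FAC, -0.08 and 0.03 in Lip-1+FAC against FAC, and 0.07 and 0.11 in Lip-1+FAC against Control. Of the genes whose stretches are printed above, Atp6v0b and Gaa rose in FAC and were lower than FAC in either pretreated group, for Gaa not with offsets for GC content and length. Lamp1, Atp6v1a, Atg5 and Atg7 were not called in FAC against Control. Against FAC, Lamp1 and Atp6v1a rose in Lip-1+FAC, Atg5 in MT+FAC and Atg7 in both, and Lgmn was not called in any comparison.

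A list of 135 further genes of the pathway, of which 126 were tested, was described in the same fit. In FAC against Control 25 were higher and 22 lower (37.3% called, against 36.6% of all genes), in Lip-1+FAC against FAC 32 and 24 (44.4% against 39.9%), in MT+FAC against FAC 26 and 28 (42.9% against 40.9%), and in MT+FAC against Lip-1+FAC 0 and 4 (3.17% against 1.34%). The first 3 shares lay near those of all genes. The 15 tested regulators of lysosome biogenesis and of mTORC1 at the lysosome gave 7 higher and 1 lower in FAC against Control (53.3% called, against 36.6% of all genes), 9 and 1 in Lip-1+FAC against Control (66.7% against 30.2%), and 7 and 1 in MT+FAC against Control (53.3% against 19.8%). The same genes gave 3 higher and 1 lower in Lip-1+FAC against FAC (26.7% against 39.9%) and 2 higher and 5 lower in MT+FAC against FAC (46.7% against 40.9%). The 15 tested autophagy receptors gave 10 higher and 4 lower in Lip-1+FAC against FAC (93.3% against 39.9%), 7 and 4 in MT+FAC against FAC (73.3% against 40.9%) and 2 and 5 in FAC against Control (46.7% against 36.6%). The 11 tested V-ATPase genes outside the 44, assembly factors and tissue-restricted isoforms among them, gave 2 higher and 0 lower in MT+FAC against FAC (18.2% against 40.9%), 2 and 1 in Lip-1+FAC against FAC (27.3% against 39.9%) and 1 and 1 in FAC against Control (18.2% against 36.6%).

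The further hydrolases and autophagy genes were set beside the members of those roles. The 33 tested autophagy core genes outside the 44 gave 6 higher and 10 lower in Lip-1+FAC against FAC (48.5% against 39.9%) and 5 higher and 9 lower in MT+FAC against FAC (42.4% against 40.9%), whereas none of the 8 autophagy members was lower there. In FAC against Control these 33 gave 8 higher and 6 lower (42.4% against 36.6%). The 32 tested hydrolases and lumenal proteins outside the 44 gave 3 higher and 6 lower in FAC against Control (28.1% against 36.6%), with a median of 0.01, where the 13 members gave 6 higher and 1 lower. They gave 8 higher and 7 lower both in Lip-1+FAC against FAC (46.9% against 39.9%) and in MT+FAC against FAC (46.9% against 40.9%). The 20 tested membrane proteins outside the 44 gave 4 higher and 3 lower in FAC against Control (35% against 36.6%), 3 and 1 in Lip-1+FAC against FAC (20% against 39.9%) and 2 and 3 in MT+FAC against FAC (25% against 40.9%). No difference between the lists was tested.

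Sqstm1, which encodes the cargo receptor p62, was 2119.8, 2247.7 and 2381.0 CPM in Control, 4301.2, 4423.6 and 3855.8 in FAC, 5658.0, 5398.9 and 5400.3 in Lip-1+FAC, and 3979.3, 4339.5 and 4400.0 in MT+FAC. Control was lowest, Lip-1+FAC highest, and FAC overlapped MT+FAC. Sqstm1 rose by 0.90 in FAC (SE 0.0642, edgeR adjusted p = 1.32e-08) and was lower in MT+FAC than in Lip-1+FAC by -0.37 (SE 0.0637, edgeR adjusted p = 0.00482). The other genes called between the pretreatments, Rragd and Rragc, which encode Rag GTPases, and Fnip1, which encodes a partner of folliculin, stood at -0.52, -0.24 and -0.42. Rragd was not called in any of the 6 fits that left out a library, and Rragc and Fnip1 were called in 1 each, whereas Sqstm1 was called in all 6. Of the exonic bases of Sqstm1 17.3% overlap another gene. Fnip1 rose by 0.81 in FAC, and Atg2a, which encodes a lipid transfer protein of the phagophore, by 0.77. Mtor, which encodes the kinase of mTORC1, was called higher than Control in both pretreated groups. In MT+FAC it was higher by 0.54 (edgeR adjusted p = 0.0387), a call lost in 4 of the 6 fits that left out a library.

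Among genes that fell in FAC and rose against FAC in both pretreated groups were Mfsd8, a lysosomal membrane transporter, by -0.59 and then 0.80 and 0.81, and the cathepsin genes Ctsh, by -0.44 and then 0.71 and 0.67, and Ctso, by -0.47 and then 0.75 and 0.66. Stx17, the autophagosomal fusion SNARE, and Atg4c, a protease that processes ATG8 proteins, fell in FAC by 0.59 and 0.71. The mitophagy receptor gene Bnip3 was 533, 388 and 543 CPM in Control, 513, 476 and 612 in FAC, 222, 256 and 223 in Lip-1+FAC, and 235, 261 and 253 in MT+FAC. It was not called in FAC against Control, at 0.13 (edgeR adjusted p = 0.468), and every pretreated library was below every other, with log2 fold changes against FAC of -1.19 (SE 0.128, edgeR adjusted p = 2e-05) and -1.09 (SE 0.128, edgeR adjusted p = 4.5e-05). Of the exonic bases of Bnip3 22.3% overlap another gene. Foxo1, a transcription factor gene, was also lower in either pretreated group, by -0.82 and -0.55 against FAC. Atg9b had the greatest fall, -2.13 and -1.55, at levels of at most 6.14 CPM.

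Ncoa4, which encodes the receptor that delivers ferritin to autophagosomes, was 191, 170 and 175 CPM in Control, 176, 171 and 201 in FAC, 164, 172 and 166 in Lip-1+FAC, and 156, 174 and 158 in MT+FAC. The groups overlapped and it was not called in any comparison, with log2 fold changes between -0.17 and 0.03. Mitf, related to Tfeb, was at most 3 CPM and not called. Npc1, the lysosomal cholesterol exporter, rose by 0.44 in FAC (edgeR adjusted p = 0.00131). It was also called higher in Lip-1+FAC against Control and lower in MT+FAC against FAC, and was not called between the pretreatments.

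**Figure D4:**
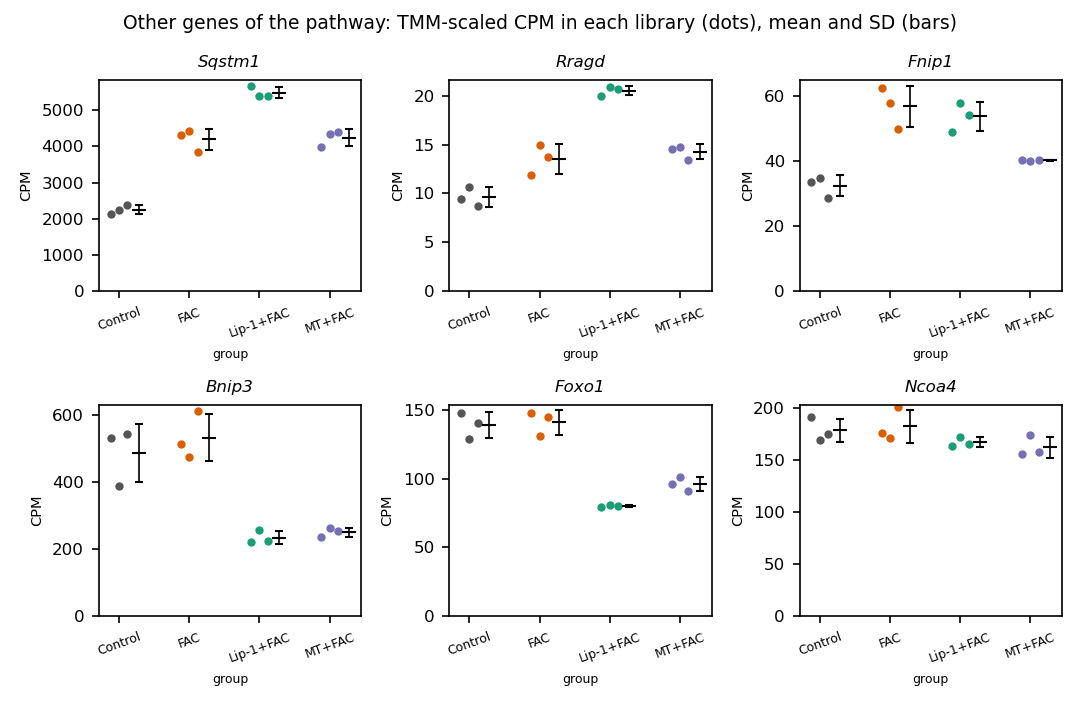
TMM-scaled CPM (vertical axes, from 0) of 6 further genes of the pathway in each library (dots), by group (horizontal axes), with mean and SD of the 3 libraries beside them. Sqstm1 was 2119.8 to 2381.0 CPM in Control and 5398.9 to 5658.0 in Lip-1+FAC, Bnip3 was lower in both pretreated groups, and the groups of Ncoa4 overlap.

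Part of the calls differed once offsets for GC content and length were fitted in each library. With them, V-ATPase genes gave 1 higher and 10 lower of 16 in MT+FAC against FAC, with a median of -0.26, where 40.6% of all genes were called, 20.1% higher and 20.5% lower. Autophagy genes gave 4 higher and 0 lower of 8 in Lip-1+FAC against FAC, where 38.9% of all genes were called, 21% higher and 17.9% lower. Hydrolases in Lip-1+FAC against FAC moved from 4 higher and 5 lower to 6 higher and 2 lower, and their median from -0.06 to 0.13. Ctsz, a short and abundant cathepsin gene, went from -0.15 (edgeR adjusted p = 0.0257) to 0.21 (edgeR adjusted p = 0.00413), so that its direction against FAC depended on this choice.

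**Figure D5:**
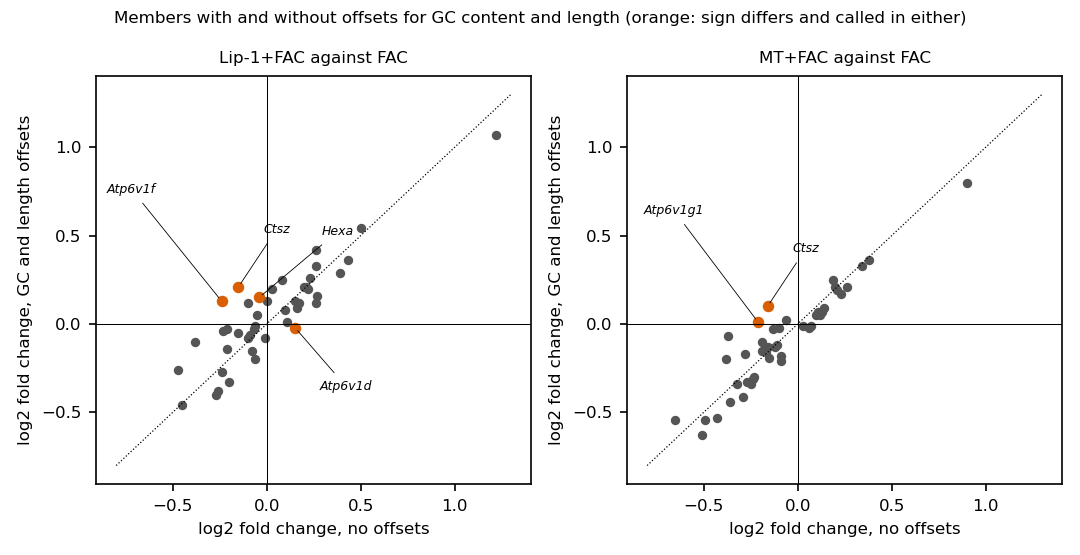
Log2 fold change of the 44 genes without (horizontal axes) and with (vertical axes) offsets for GC content and length, in Lip-1+FAC against FAC (left) and MT+FAC against FAC (right), with the diagonal dotted. Orange points changed sign and were called in at least 1 of the fits, which holds for Atp6v1d, Atp6v1f, Ctsz and Hexa on the left and for Atp6v1g1 and Ctsz on the right.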

How the data were processed

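RNA was purified with DNase treatment, amplified with the SMART-Seq v4 kit, which does not mark strand, and sequenced from Nextera XT libraries as paired reads, per the labels' protocols. Per the submitters' processing notes, STAR and GRCm38 were used. The annotation and the STAR version are not given in the sources used here. The deposited files hold the authors' raw counts of reads per gene, not normalized, and the unstranded column was used. Lines naming no gene stayed out of library sizes, and 75.8% to 81.2% of listed reads were assigned to genes. Reads mapping to several places are not counted in this layout, and the labels mention no molecular identifiers, so reads are not independent molecules.

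Counts were filtered with filterByExpr, scaled by TMM and tested with edgeR 4.0.16 (quasi-likelihood F test, robust, R 4.3.3) in 1 fit of 4 group means over 12 libraries, with 8 residual degrees of freedom and a common biological coefficient of variation of 9.71%. P-values are two-sided and adjusted by Benjamini-Hochberg over 13535 genes. Standard errors were derived from the fold change and F. Gene positions, exon lengths and overlaps come from GENCODE M21. Annotated copies were searched with blastn 2.17.0+ at 95% identity over at least 200 bases. The test was checked on simulated data. Alternatives changed scaling, filter, test (DESeq2 1.42.0), libraries in the fit, counting column and offsets for GC content and length (natural splines of log length and GC content per library), added a replicate block, or left out a library.

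The 44 genes, their roles and the further list were chosen with earlier results of these data known. Full statistics were given for the 4 largest rises and 4 largest falls among called members of each comparison, and always for Tfeb, Tfe3, Map1lc3b, Lamp1, Ctsd and Atp6v1a. Of the further genes, the 3 largest rises and falls were named, and always Sqstm1, Ncoa4, Mitf and Npc1; 1 further gene that the rule names is not reported here. Other members were named as part of their role.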

Additional observations from a re-analysis of the deposited data

How the results depend on the processing

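The number of members called stayed within 1.5 times the reported number under every alternative run in FAC against Control, Lip-1+FAC against FAC, MT+FAC against FAC and Lip-1+FAC against Control, and leaving out a library gave 15 to 19, 18 to 24, 19 to 24 and 14 to 19 calls. The members called were not all the same ones, since with offsets for GC content and length 19 of 20, 16 of 26, 18 of 26 and 13 of 17 reported calls were shared in these comparisons, among 22, 21, 21 and 19 calls. For MT+FAC against Lip-1+FAC, 3 calls became 5 without a filter on low counts, 6 with the filter of 10 counts in 3 libraries, 7 with the stranded columns summed, 7 with only the compared groups in the fit, 11 with DESeq2, and 1 to 4 without a library. For MT+FAC against Control, 13 calls became 5 with offsets for GC content and length and 7 to 12 without a library. Offsets for GC content and length reversed the direction of Atp6v1d to -0.02, Atp6v1f to 0.13, Ctsz to 0.21 and Hexa to 0.15 in Lip-1+FAC against FAC, of Atp6v1g1 to 0.01 and Ctsz to 0.10 in MT+FAC against FAC, and of Lamp2 to -0.07 and Ctsz to 0.23 in Lip-1+FAC against Control, and the cause was not tested. With the replicate number as a block, 20, 24, 27, 3, 17 and 11 members were called in the 6 comparisons in the order of the report. For samples with the same number, deviations from the group mean had correlations between -0.25 and 0.16. For samples with different numbers the correlation reached 0.22. Such a check on 3 libraries a group cannot show whether the numbers pair the samples. With 3 libraries a group and a common coefficient of variation of 9.71%, a missed call does not show that levels were equal. No permutation of 3 against 3 libraries can give an exact two-sided p below 0.1.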
